A study of Mus musculus with 26 samples.

Results

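The 5 genes *Tac1*, *Calca*, *Calcb*, *Sst* and *Nppb* encode the precursors of peptides that pain- and itch-sensing neurons release, and they are described here across all 26 libraries of a study of mouse dorsal root ganglia (DRG). They were chosen by name from the 55401 genes of the deposited count tables, and all 5 had counts in 26 of 26 libraries. Sensory neurons that detect damaging stimuli (nociceptors) store peptides in dense core vesicles and release them at both their spinal and their skin endings. *Tac1* encodes substance P and neurokinin A, which act on tachykinin receptors. *Calca* and *Calcb* encode the alpha and beta forms of calcitonin gene-related peptide (CGRP), a vasodilator and pain transmitter. *Sst* encodes somatostatin, which acts on inhibitory receptors, and *Nppb* encodes natriuretic polypeptide b, a transmitter of itch. In the mouse ganglion *Tac1* and *Calca* mark peptidergic nociceptors, while *Sst* and *Nppb* are known to be made together by one small class of itch-sensing neurons.

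RNA was sequenced from lumbar (L4 to L6) ganglia and from cultured ganglion neurons of control mice and of conditional knockout (cKO) mice in which the aryl hydrocarbon receptor gene *Ahr* was to be deleted. The cKO mice were Ahr f/f with Thy1-CRE(ERT2/EYFP), a tamoxifen-inducible Cre recombinase that is driven by the neuronal *Thy1* promoter, and controls were Ahr fl/fl or Ahr fl/+ without Cre. Naive ganglia, and ganglia 1 day after sciatic nerve crush, came from 3 mice per genotype each; all of these mice were given tamoxifen when 28 weeks old (5 daily injections of 100 mg/kg), 5 weeks before ganglia were taken or the nerve was crushed. Ganglia of both sides were taken 1 day after sham surgery from 2 mice per genotype, and semi-purified neurons were taken 24 hours after seeding in 3 libraries per genotype. Tamoxifen is stated for the naive and crushed mice and not for the sham mice or the neurons, and the age of the latter groups is not given in the sources used here. Naive and crushed controls were Ahr fl/+ in replicates 1 and 2 and Ahr fl/fl in replicate 3, sham controls were Ahr f/+ in mouse 1 and Ahr fl/fl in mouse 2, and all neuron controls were Ahr fl/fl. The crushed and naive ganglia are whole tissue, so a gene's level depends on all cells of the ganglion, and the labels do not say whether crushed ganglia came from one side.

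The 12 naive and crushed libraries held between 20169388 and 23540375 counts. Depth ranged from 39306414 to 58751270 counts for the 8 sham ganglia, and from 25299938 to 88180611 for the 6 cultures of neurons. Levels are given in CPM, the usual depth-scaled gene counts, here with TMM-normalized library totals. In 2 libraries the *Xist* and Y-linked counts went against the labelled sex. Crushed control replicate 3 is labelled male and was female by transcripts (338 *Xist* and 2 Y-linked counts), and crushed cKO replicate 2 is labelled female and was male (0 and 1641). These 2 libraries carry opposite genotype labels, but *Thy1* placed each with its labelled genotype: it was 719.5 to 768.9 CPM in the 3 crushed control and 1182 to 1397 CPM in the 3 crushed cKO libraries. By transcripts the naive, crushed control and neuron libraries were all female, the sham libraries all male, and the crushed cKO libraries 1 female and 2 male. *Thy1* separated the genotypes in naive ganglia (705.6 ± 47.7 CPM in control, 1275 ± 73.5 CPM in cKO; SD, n = 3), while *Ahr* was not lower in cKO (21.1 ± 2.69 and 23.6 ± 2.81 CPM). The *Ahr* gene count therefore does not check the labels, and cKO denotes the libraries labelled so.

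Sequences near the start of these genes are shown because *Tac1* and *Calca* varied together over the libraries while *Sst* and *Nppb* went opposite ways after crush. RefSeq promoters (GRCm38.p6, 250 bases before to 50 after the RefSeq start) were at hand for 4 of 5 genes, *Calcb* being the exception. They were searched on both strands for TGACGTCA, the palindromic cyclic AMP response element, for its variant TGACGCAA, and for GATAA, the core that GATA factors bind. The second was added after the sequences had been read. Each line gives 30 bases, 5′ to 3′ on the gene's strand, with the motif in capitals.
Sst, chr16:23890874-23890903, minus strand: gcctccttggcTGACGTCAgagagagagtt
Tac1, chr6:7554850-7554879, plus strand: cttccctaaaaTTGCGTCAtttcgaacaca
Calca, chr7:114636404-114636433, minus strand: aagcacagaggTGACGCAAtctgtctgggg
Nppb, chr4:147985794-147985823, plus strand: aggaatgcagctGATAAatcagagataacc
The palindrome stood in *Sst*, 48 to 41 bases before the start, and in 1.79% of 32851 promoters searched. The variant stood in *Calca*, 65 to 58 bases before the start, and in *Tac1* as its reverse complement TTGCGTCA, 200 to 193 bases before the start, and in 0.49% of promoters. GATAA or its reverse complement TTATC is a short motif that 25.4% of promoters hold: *Nppb* held 2 copies (the second in lower case near the end of its line), and *Tac1* and *Calca* 1 each. TATAAA, the TATA box, was also searched; it stood in *Nppb*, 31 to 26 bases before the start, and in 13.6% of promoters. A match is a description of letters and no evidence of binding or of shared control. The variant was chosen from these promoters, so its share of all promoters is no test of its presence in *Tac1* and *Calca*.

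*Calca* and *Calcb* are neighbours on chromosome 7 (114631478 to 114636357, minus strand, and 114718643 to 114723365, plus strand, mm10) and near-copies over the exon that encodes CGRP. The longest stretch that their annotated transcripts share is 61 bases, shown because a read inside it fits both genes. It is coding in both, across exons 3 and 4 of Calca-201 and exons 4 and 5 of Calcb-203, and the same letters stand unspliced at chr7:114632541-114632601 in exon 1 of Calca-203.
Calca and Calcb shared: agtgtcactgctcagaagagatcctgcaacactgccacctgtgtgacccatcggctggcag
Of all 50-base windows of its transcripts, *Calca* shared 0.72% and *Calcb* 0.95% with the other, and no 100-base window was shared with any gene. *Tac1*, *Sst* and *Nppb* shared no 50-base window with another gene. No other counted gene overlapped any of the 5. *Calca* also makes calcitonin by splicing, and gene counts do not separate it from CGRP.

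In naive control ganglia *Calca* was the most abundant of the 5 and *Sst* the least. Per kilobase of exon, *Calca* was at 397.9 ± 15.7 CPM, *Calcb* at 125.3 ± 10.03, *Tac1* at 43.3 ± 1.64, *Nppb* at 13.9 ± 2.48 and *Sst* at 8.83 ± 1.75 (SD, n = 3). This order was the same in all 10 groups, also in the deposited FPKM (148.9, 36.4, 14.6, 8.34 and 5.00 in naive control), which divide by the gene's span with its introns. *Nppb* and *Sst* overlapped in naive cKO and in cKO neurons on both scales. *Tac1* and *Nppb* overlapped on the FPKM scale in crushed control and in ipsilateral sham control ganglia. In CPM without length, the highest group mean exceeded the lowest by 2.72 times for *Tac1*, 2.04 for *Calca*, 1.29 for *Calcb*, 2.66 for *Sst* and 2.74 for *Nppb*. *Calcb* was thus the steadiest, and its libraries overlapped between each pair of groups that stood next to each other in the order of means. Levels set across the 2 deposited tables depend on scaling: *Calca* was at 790.0 CPM in contralateral sham control and 670.0 in naive control ganglia, and at 732.2 and 726.7 on library totals without TMM factors. Sham and naive ganglia also differed in sex, table and stated tamoxifen, which cannot be told apart, so their levels were not tested against each other.

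**Figure D1:**
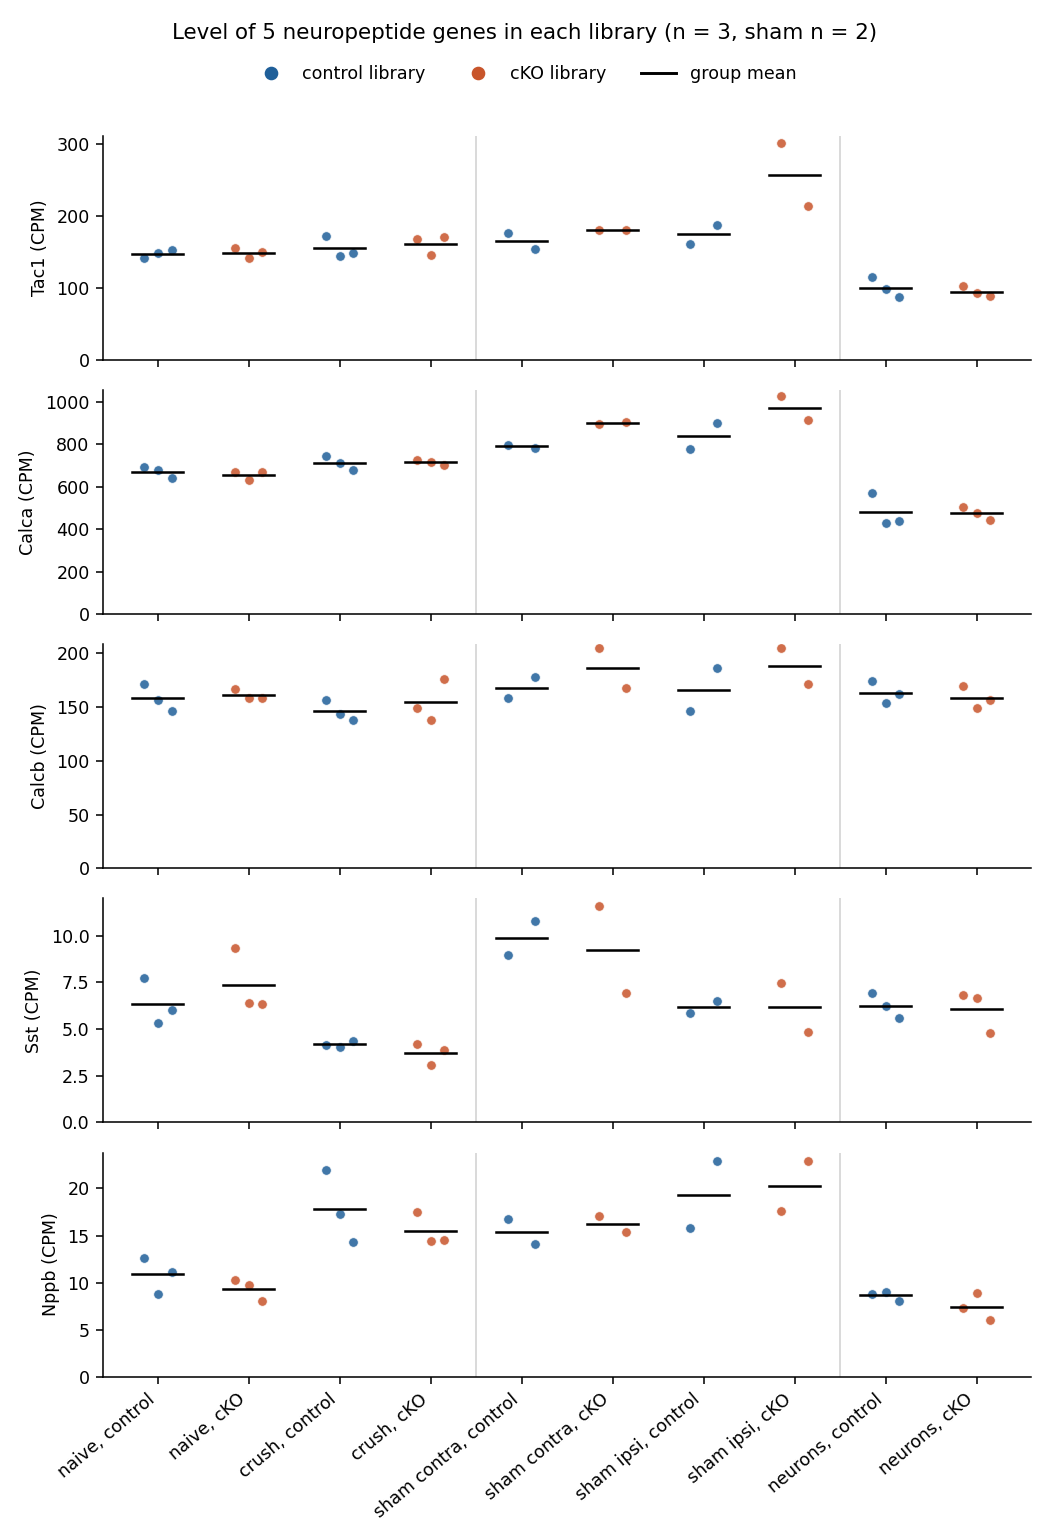
Level of each gene in each library, in CPM (linear axes from 0), by group; points are libraries (blue control, orange cKO), black lines group means. Sst is lowest in the crushed ganglia (3.06 to 4.37 CPM), Nppb is higher there (14.4 to 22.0) than in naive ganglia (8.04 to 12.7), and Tac1 and Calca are lowest in the neurons.

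The first comparison sets ganglia 1 day after sciatic nerve crush against naive ganglia. Crush of the axons and the surgery around it cannot be told apart here. *Sst* fell and *Nppb* rose in both genotypes, whereas *Tac1*, *Calca* and *Calcb* did not pass the test in either. *Sst* was at 7.76, 5.32 and 6.02 CPM in the 3 naive control libraries and at 4.17, 4.06 and 4.37 CPM after crush. In cKO it was at 9.32, 6.38 and 6.35 CPM before and at 4.22, 3.06 and 3.90 CPM after crush. All 6 crushed libraries were below all 6 naive ones. The log2 fold change was -0.59 (SE 0.185, adjusted p = 0.0387) in control and -0.99 (SE 0.186, adjusted p = 0.003) in cKO, by edgeR's quasi-likelihood test. In whole ganglia, fewer cells of a type and less RNA per cell cannot be told apart.

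*Nppb* went the other way. It was at 12.7, 8.81 and 11.2 CPM in naive control and at 22.0, 17.2 and 14.4 CPM in crushed control libraries. In cKO it was at 10.3, 9.78 and 8.04 CPM before and at 17.5, 14.4 and 14.5 CPM after crush. Again no crushed library overlapped a naive one. The log2 fold change was 0.72 (SE 0.165, adjusted p = 0.00881) in control and 0.71 (SE 0.168, adjusted p = 0.011) in cKO.

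Among the 21261 genes tested, 21.6% were called in control and 18.6% in cKO ganglia, beside 2 of the 5 neuropeptides in each. The call of *Sst* in control was lost when any library but naive control replicate 2 was left out (-0.64 to -0.43, adjusted p 0.0643 to 0.141 in those 5 fits; -0.71, adjusted p = 0.0284 without that replicate) and without the 2 libraries that go against their labelled sex (-0.63, adjusted p = 0.0629). In cKO, *Sst* missed the threshold with sex by transcripts as a term (-0.81, adjusted p = 0.109), and *Nppb* missed it without naive cKO replicate 3 (0.61, adjusted p = 0.0582). In the 1 crushed cKO library that is female like the naive ones, *Sst* was at 4.22 and *Nppb* at 17.5 CPM.

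Averaging the crush effect over both genotypes, a contrast chosen after these results were seen, used all 12 libraries. *Sst* then fell by 0.79 (SE 0.131, adjusted p = 6e-04) and *Nppb* rose by 0.71 (SE 0.118, adjusted p = 0.000575) on the log2 scale, where 34.1% of all genes were called. In this contrast both stayed past the threshold in all 20 alternatives, with *Sst* between -0.85 and -0.69 and *Nppb* between 0.62 and 0.81. The crush effect of *Sst* was larger in cKO by -0.39 (approximate 95% interval -0.97 to 0.18, adjusted p = 1.00). Of the 5 genes 0 passed in this test of the genotype difference, at an adjusted or an unadjusted p under 0.05 in edgeR or in DESeq2. Of all genes 0% had an adjusted and 2.95% an unadjusted p under 0.05 in edgeR, and DESeq2 called 0.

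*Tac1*, *Calca* and *Calcb* did not pass after crush. *Tac1* was at 141.1, 148.7 and 152.0 CPM in naive control and 172.2, 143.7 and 148.6 CPM in crushed control libraries, and the groups overlapped. Its log2 fold change was 0.07 (interval -0.10 to 0.25, adjusted p = 0.564) in control and 0.10 (-0.07 to 0.28, adjusted p = 0.434) in cKO. *Calca* was at 692, 678 and 641 CPM in naive control and at 743, 711 and 679 after crush, and at 667, 631 and 668 CPM in naive cKO and 728, 715 and 703 after crush. In cKO no crushed library overlapped a naive one, but neither the cKO (0.11, interval -0.01 to 0.23, adjusted p = 0.184) nor the control difference (0.09, -0.03 to 0.20, adjusted p = 0.281) passed. Averaged over genotypes, *Calca* was 0.10 higher (interval 0.02 to 0.18, adjusted p = 0.0614), and DESeq2 called this difference (0.09, adjusted p = 0.0275). *Calcb* ranged from 146.8 to 171.9 CPM in naive and from 137.9 to 176.5 CPM in crushed libraries of both genotypes. Its log2 fold change was -0.11 (-0.31 to 0.08) in control and -0.08 (-0.27 to 0.12) in cKO. Averaged over genotypes it was -0.09 (interval -0.23 to 0.04, adjusted p = 0.277), and without crushed cKO replicate 3 it was -0.16 and passed (adjusted p = 0.0465). Of 9 further markers of peptidergic nociceptors 2 rose and 1 fell in control and 2 rose and 3 fell in cKO (medians 0.01 and -0.09). *Gfra3*, the artemin receptor, rose by 0.60 and 0.48 (adjusted p = 0.000787 and 0.00347), *Bmpr1b* was at -0.73 in control (adjusted p = 0.0124), and *Kit* at -0.38 in cKO (adjusted p = 0.00401).

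**Figure D2:**
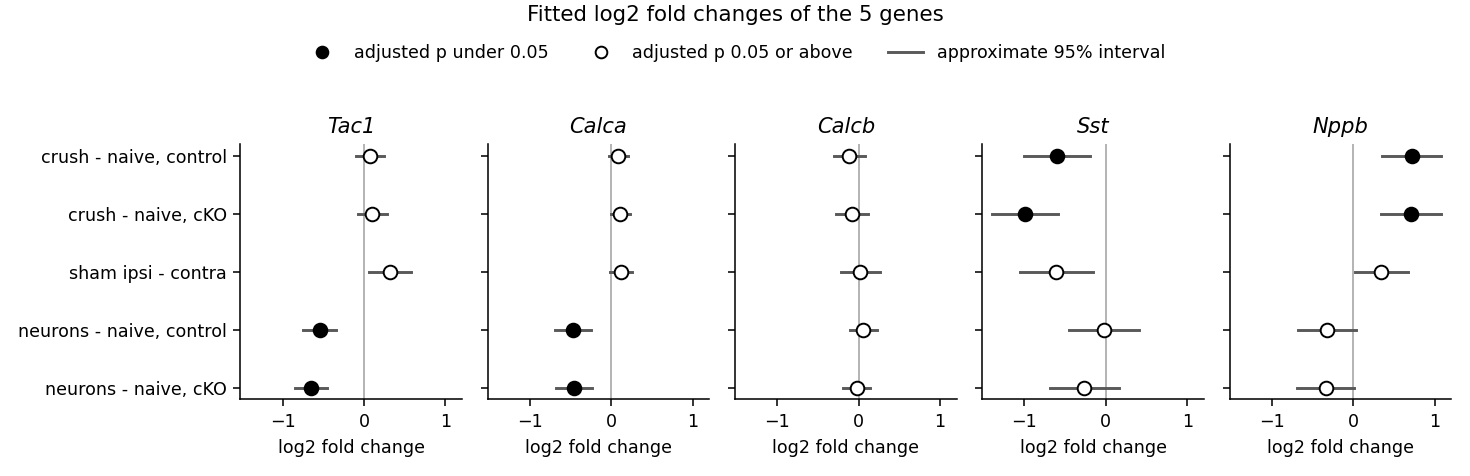
Fitted log2 fold change of each gene (x axis) in 5 comparisons (y axis), with approximate 95% intervals; filled points have an adjusted p under 0.05. Only Sst and Nppb are called after crush, in opposite directions, and only Tac1 and Calca in the neurons.

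The ratio of *Nppb* to *Sst* within a library needs no normalization and shows the same change. Naive control libraries had 1.63 to 1.86 *Nppb* counts per *Sst* count and naive cKO libraries 1.10 to 1.53. After crush the ratio was 3.29 to 5.26 in control and 3.72 to 4.73 in cKO, above every naive library. In sham mice it was 1.299 to 2.224 on the side opposite and 2.36 to 4.74 on the operated side, without overlap. In neurons it was 1.07 to 1.45, below all naive control and all crushed libraries and overlapping naive cKO. These ratios are descriptions without a test, since the pair was chosen with its changes known.

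**Figure D3:**
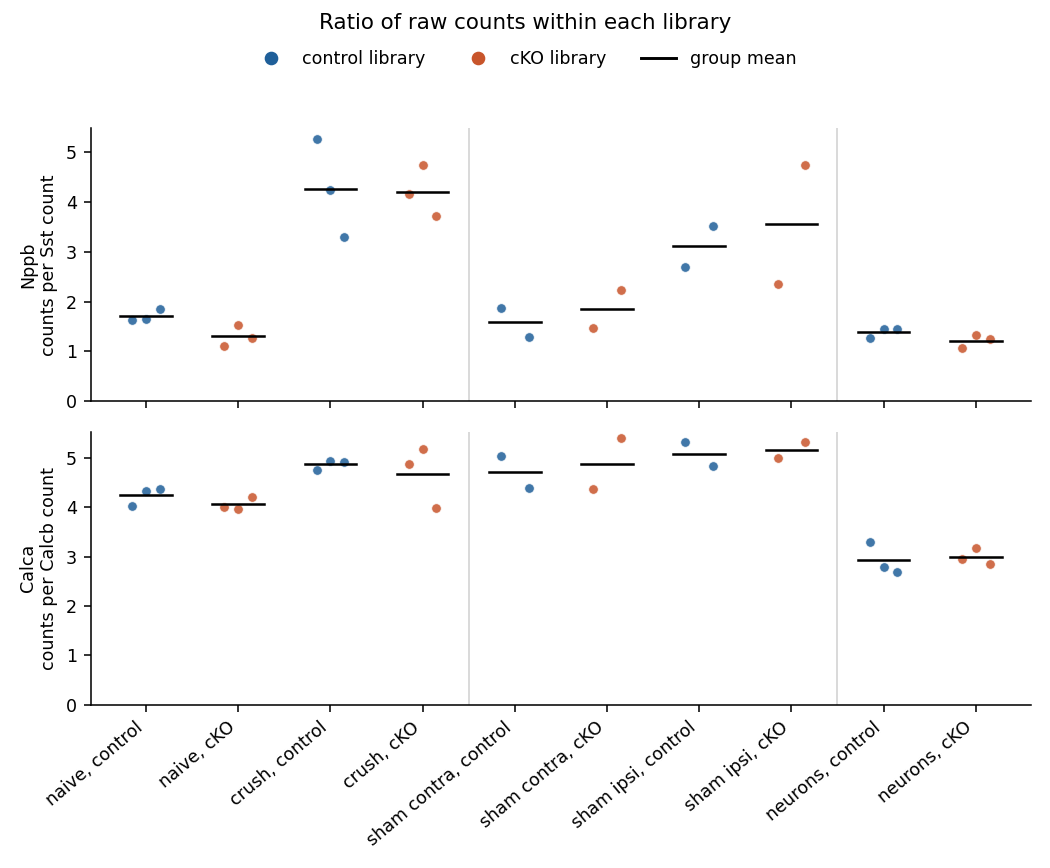
Ratio of raw counts within each library (linear axes from 0) for Nppb over Sst and for Calca over Calcb, by group; points are libraries (blue control, orange cKO), black lines group means. All crushed and all ipsilateral sham libraries lie above all naive and contralateral ones in the first ratio, and the neurons lie lowest in the second (2.70 to 3.29).

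The receptors of these peptides were examined as a list of 17 genes, of which 15 passed the filter on low counts in this fit. In control 1 rose and 2 fell after crush, and in cKO 1 rose and 3 fell; the list's median log2 fold change was -0.08 and -0.14, against -0.02 and 0.00 over all genes. With 21.6% and 18.6% of all genes called, 3 and 4 of 15 is near the background and no result about the list. The genes that fell in both genotypes were the somatostatin receptors *Sstr1* and *Sstr2*. *Sstr1* went from 6.04 ± 1.26 to 2.83 ± 0.456 CPM in control (-1.09, SE 0.168, adjusted p = 0.000713) and from 5.505 ± 0.542 to 2.96 ± 0.177 CPM in cKO (-0.91, SE 0.168, adjusted p = 0.00261; SD, n = 3). *Sstr2* went from 6.57 ± 0.141 to 4.26 ± 0.382 CPM in control (-0.62, adjusted p = 0.0101) and from 7.19 ± 0.864 to 5.05 ± 1.06 CPM in cKO (-0.52, adjusted p = 0.0245). *Crcp*, a component of CGRP receptor signalling, was 0.23 higher in control (adjusted p = 0.0272) and 0.39 higher in cKO (adjusted p = 0.00149). *Tacr1*, the substance P receptor, was below 1 CPM in all 10 groups, and *Calcrl* and *Ramp1*, which form the CGRP receptor, did not pass in either genotype. *Npr1*, the receptor of natriuretic peptide b, did not pass either (-0.29, adjusted p = 0.507 in control; 0.13, adjusted p = 0.81 in cKO).

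Of 16 genes that process and package peptides 5 rose in control and 3 in cKO, with 0 that fell. Of all 21261 genes 2744 rose and 1857 fell in control, and 2285 rose and 1677 fell in cKO. *Vgf*, a granin-like cargo of dense core vesicles, went from 89.2 ± 7.77 to 447.5 ± 43.3 CPM in control (2.33, SE 0.132, adjusted p = 7.82e-07) and rose by 1.97 in cKO (adjusted p = 2.34e-06). *Pcsk1*, the proprotein convertase 1 that cuts peptide precursors, rose by 0.78 (adjusted p = 0.000619) and 0.84 (adjusted p = 0.000404). *Cpd*, a carboxypeptidase, rose by 0.47 and 0.37 (adjusted p = 0.00141 and 0.00673). Of 20 other genes, listed as neuropeptides but including the neurotrophin gene *Bdnf*, 14 were tested, and 8 rose in each genotype. *Bdnf* rose by 1.65 and 1.59, *Adcyap1*, which encodes PACAP, by 2.17 in both, and *Gal*, which encodes galanin, by 2.25 and 2.23, with all 6 adjusted p-values at or below 2.54e-05. *Pnoc*, the precursor of nociceptin, named after its values were seen, was the 1 that fell, in control (-1.97, adjusted p = 0.012). *Nppb* thus rose, as did 8 genes of this list, and *Sst* did not.

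Of the other markers of the itch-sensing class that makes *Sst* and *Nppb*, most rose after crush. All 6 listed (*Trpv1* among them is also listed for peptidergic nociceptors) had positive log2 fold changes in both genotypes, 5 rose in control and 4 in cKO, and the list's median was 0.48 and 0.32. Of the 21261 genes tested, 2744 rose in control and 2285 in cKO, and 52.8% and 50.8% had negative values. *Osmr* and *Il31ra*, which form the receptor of the itch cytokine interleukin 31, rose by 0.70 (adjusted p = 3.14e-05) and 0.52 (adjusted p = 0.00204) in control and by 0.36 and 0.36 in cKO (adjusted p = 0.00355 and 0.018). *Htr1f*, a serotonin receptor, rose by 0.45 and 0.48 (adjusted p = 0.00943 and 0.00665). *Nppb* moved in the direction of these markers, and *Sst* moved against them. The 12 pan-neuronal genes had medians of -0.03 and -0.06, with 1 that rose and 1 that fell in control and 1 and 3 in cKO. Of 7 markers of non-peptidergic nociceptors 1 rose and 3 fell in control and 5 fell in cKO, with *Mrgpra3* at -0.94 and -0.98 (adjusted p = 4.74e-05 and 4.26e-05). Of 7 A-fibre neuron markers 1 rose and 2 fell in each genotype (medians -0.21 and -0.15, 6 of 7 negative in both). *Ret* rose by 0.57 and 0.30 (adjusted p = 0.000286 and 0.0171). *Pvalb* was at -0.35 in control and *Calb1* at -0.39 and -0.22 (adjusted p = 0.00146, 0.00173 and 0.0422). Macrophage, Schwann cell and fibroblast markers had 0 calls in either genotype (6 genes each), though all 6 fibroblast genes had negative values (medians -0.22 and -0.50). Of 6 satellite glia genes 2 rose and 1 fell in control (*Glul* 0.58, *Kcnj10* 0.33 and *Fabp7* -0.35; adjusted p = 0.000428, 0.0322 and 0.011) and 1 rose in cKO (*Glul* 0.48, adjusted p = 0.0016). Their summed level was 1793 to 1828 CPM in naive and 1913 to 2072 CPM in crushed control, without overlap, and 1731 to 2012 and 1968 to 2191 CPM in cKO. Of 6 endothelial genes *Cldn5* fell in control (-0.74, adjusted p = 0.0264) and 0 were called in cKO. All 5 red cell genes had negative values too (medians -0.40 and -0.93) and 2 fell in cKO; their summed level was 382.6 to 583.2 CPM in naive and 355.6 to 432.9 CPM in crushed control, and 247.1 to 407.2 and 102.0 to 273.6 CPM in cKO. The part of these cells in the changes of *Sst* and *Nppb* was not tested.

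**Figure D4:**
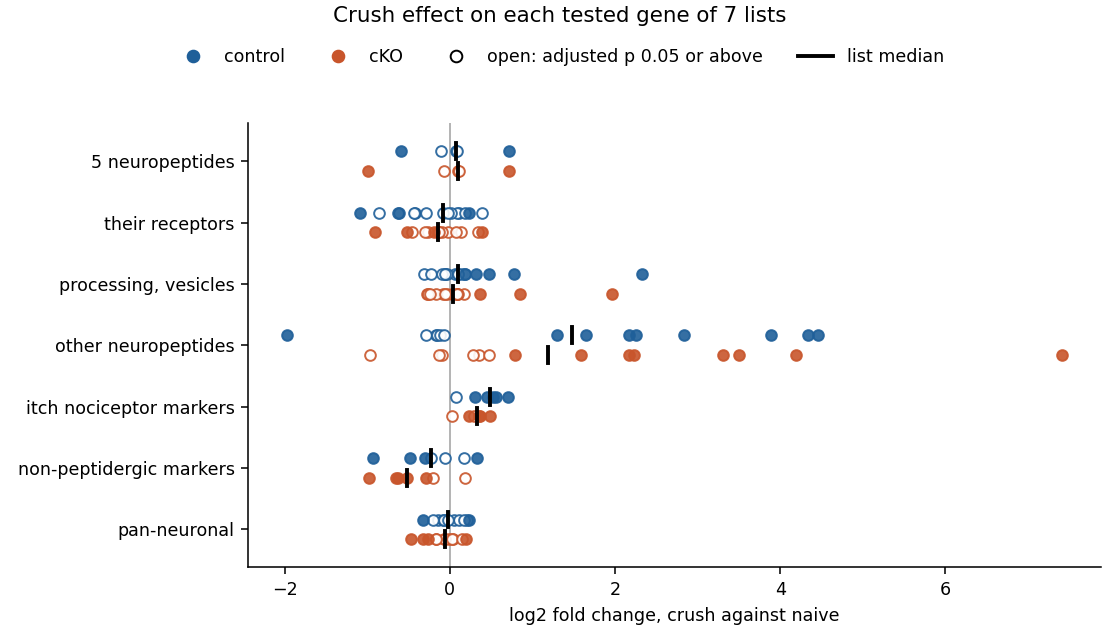
Log2 fold change after crush (x axis) of each tested gene in 7 lists (y axis), control in blue and cKO in orange; filled points passed the test, open points did not, and black bars are list medians. All 6 itch nociceptor markers lie to the right of 0 (medians 0.48 and 0.32) while Sst lies on the left; fitted values of genes with almost no naive counts, at the far right, depend on the prior count.

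Sham surgery was compared between the operated and the other side of the same mice, in a fit of group means without a term for the mouse. None of the 5 genes passed. The fitted differences had the sign of those after crush in 4 of 5 genes, and that of *Calcb* was near 0. For *Sst* the difference (-0.61) was near that after crush in control (-0.59) and smaller than that in cKO (-0.99). For *Nppb* it (0.35) was smaller than after crush (0.72 in control, 0.71 in cKO). *Sst* was at 8.98 CPM contralaterally and 5.84 ipsilaterally in control mouse 1, and at 10.8 and 6.52 in control mouse 2. It was at 11.6 and 7.49 CPM in cKO mouse 1 and at 6.92 and 4.84 in cKO mouse 2. With sides paired by the labelled mouse, the operated side was lower in 4 of 4, at 0.60 to 0.70 of the other side. The deviations of the cKO libraries did not follow this pairing (correlation -0.159), and the operated side of cKO mouse 1 was above the other side of cKO mouse 2. The fitted log2 difference was -0.61 (SE 0.195, unadjusted p = 0.015, adjusted p = 0.534). *Nppb* was at 16.8 and 15.7 CPM (contralateral and ipsilateral) in control mouse 1, 14.1 and 23.0 in control mouse 2, 17.1 and 17.6 in cKO mouse 1 and 15.4 and 22.9 in cKO mouse 2. It was higher on the operated side in 3 of 4 mice, and the log2 difference was 0.35 (SE 0.140, unadjusted p = 0.0391, adjusted p = 0.639).

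*Tac1* was higher on the operated side in 3 of 4 mice. It was at 176.3 and 161.5 CPM in control mouse 1, 154.3 and 187.7 in control mouse 2, 180.0 and 300.4 in cKO mouse 1 and 180.3 and 213.0 in cKO mouse 2. The ipsilateral ganglion of cKO mouse 1 was the highest of all 26 libraries. The log2 difference was 0.32 (SE 0.109, unadjusted p = 0.02, adjusted p = 0.56). *Calca* differed by 0.12 (interval -0.02 to 0.26) and *Calcb* by 0.02 (-0.21 to 0.26). In edgeR 0 of 5 were called at an adjusted p under 0.05 and 3 of 5 had an unadjusted p under 0.05; DESeq2 called 0 of 5, beside 200 of all genes. The only gene with an adjusted p under 0.05 in edgeR was *Gal* (0.00451% of 22160 genes; 1.29, SE 0.058, adjusted p = 0.000659), and 7.56% of genes had an unadjusted p under 0.05. With genes of any count kept, *Tac1* (0.31, adjusted p = 0.0254) and *Sst* (-0.62, adjusted p = 0.0203) were called. Schwann cell genes were lower ipsilaterally in 6 of 6 without a call (median -0.32), and macrophage genes higher in 6 of 6 without a call (0.10). Single mice differed: the summed Schwann level was higher ipsilaterally in control mouse 2 (3326 to 4226 CPM), and the macrophage sum was lower ipsilaterally in both control mice (140.9 to 130.4 and 131.0 to 120.3 CPM). The summed level of 4 skeletal muscle genes ranged from 2.99 to 1604 CPM over the 8 libraries, highest in the operated side of cKO mouse 2. Their part in these differences was not tested. The side difference of *Tac1* was 0.47 larger in cKO than in control (interval -0.03 to 0.98, adjusted p = 1.00), the smallest p of the 5. It was 0.18 without the operated side of cKO mouse 1, and the other fits without 1 library gave 0.34 to 0.69, the highest without the operated side of cKO mouse 2. Of the 5 genes 0 passed at an adjusted or unadjusted p under 0.05 in edgeR or in DESeq2. Of all genes, edgeR called 0% at an adjusted p under 0.05, 4.08% had an unadjusted p under 0.05, and DESeq2 called 12.

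The cultured neurons were compared with naive whole ganglia, where table, depth, purification, culture and stated tamoxifen cannot be told apart. The *Ahr* genotype of the controls differed too, and the age of the neuron mice is not given. *Tac1* and *Calca* were lower in the neurons in both genotypes, and *Calcb* was not. *Tac1* was at 114.4, 98.3 and 87.6 CPM in control neurons, against 141.1 to 152.0 CPM in naive control ganglia. In cKO neurons it was at 102.2, 92.6 and 88.3 CPM, against 141.9 to 154.7 CPM. No neuron library overlapped a ganglion, with log2 fold changes of -0.55 (SE 0.092, adjusted p = 0.00013) in control and -0.65 (SE 0.092, adjusted p = 2.77e-05) in cKO. *Calca* was at 572, 429 and 438 CPM in control and 503, 476 and 445 CPM in cKO neurons, also apart from the ganglia. Its log2 fold changes were -0.47 (SE 0.102, adjusted p = 0.000935) and -0.46 (SE 0.102, adjusted p = 0.00107).

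*Calcb* was at 173.9, 154.3 and 162.3 CPM in control and 169.8, 149.6 and 156.8 CPM in cKO neurons, overlapping the naive ganglia of both genotypes (146.8 to 171.9 and 158.8 to 167.1 CPM). The log2 difference was 0.06 (interval -0.10 to 0.22, adjusted p = 0.477) in control and -0.02 (-0.19 to 0.14, adjusted p = 0.79) in cKO. Accordingly there were 2.70 to 3.29 *Calca* counts per *Calcb* count in neurons and 3.97 to 4.36 in naive ganglia, without overlap. *Sst* was at 6.94, 6.21 and 5.61 CPM in control and 6.81, 6.67 and 4.78 CPM in cKO neurons, overlapping the naive ganglia. Its log2 difference was -0.02 (-0.45 to 0.41) in control and -0.27 (-0.69 to 0.16) in cKO. *Nppb* was at 8.80, 9.01 and 8.09 CPM in control and 7.29, 8.88 and 6.02 CPM in cKO neurons. It missed the threshold with -0.32 (SE 0.161, adjusted p = 0.0821) and -0.34 (SE 0.161, adjusted p = 0.0707), and it passed in control without naive control replicate 2 (-0.48, adjusted p = 0.0163). In cKO it passed in DESeq2 (-0.40, adjusted p = 0.0289), with RLE factors, with at least 10 counts in every library, and without naive cKO replicate 3 or neuron cKO replicate 2.

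A call is common in this comparison: 83.2% of 22185 genes in control and 82.1% in cKO were called, so that 2 of 5 neuropeptides is a smaller share than among all genes. The 12 pan-neuronal genes had median log2 fold changes of -0.90 and -0.93, with 10 lower and 2 higher in each genotype. *Elavl4* was at -2.13 and -2.10 and *Tubb3* at -1.37 and -1.44, while *Avil* was at 1.34 and 1.23 (adjusted p at most 6.18e-09). The values of *Tac1* and *Calca* lay between that median and 0. Of 9 further markers of peptidergic nociceptors 8 fell in control and 7 in cKO (medians -1.28 and -1.12), and *Trpv1*, the heat and capsaicin channel, fell by 1.28 in control. All 6 Schwann cell genes fell (medians -5.30 and -5.22) and all 6 endothelial genes rose (2.97 and 2.66). The part of these cells in the levels of the 5 genes was not tested.

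Around the peptides, *Vgf* was higher in neurons by 2.66 and 2.81 and *Furin*, a convertase, by 2.07 and 2.03, and *Pcsk2*, the proprotein convertase 2, differed by -1.34 and -1.27 (adjusted p at most 6.89e-08). *Mme*, the peptide-degrading enzyme neprilysin, differed by -4.01 and -3.55. Among receptors, *Sstr2* differed by -2.30 and -2.68, *Sstr1* by -2.81 and -2.22 and *Ramp1* by -5.07 and -3.92. *Calcrl* was higher by 1.91 and 1.63 and *Npr1* by 1.77 and 2.04 (all 10 with an adjusted p at most 2.26e-05). *Tacr1* was lower in cKO (-0.86, adjusted p = 0.0218) and did not pass in control (-0.43, adjusted p = 0.26). For the 5 neuropeptides no test of a genotype difference in the culture effect passed. The smallest p was that of *Sst* (-0.25, interval -0.85 to 0.36, adjusted p = 0.807). In edgeR 0 of 5 had an adjusted or unadjusted p under 0.05, and DESeq2 called 0 of 5. Of all genes, edgeR called 0.00451%, 7.54% had an unadjusted p under 0.05, and DESeq2 called 36.

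The genotypes were compared within each setting, and 0 of 5 genes were called in any of the 5. In naive ganglia (0.00941% of all genes called) the smallest p belonged to *Sst*, which was 0.22 higher in cKO (interval -0.17 to 0.61, adjusted p = 0.772). In crushed ganglia (0.00941%) it belonged to *Nppb*, -0.21 (-0.56 to 0.15, adjusted p = 1.00), and in neurons (0%) to *Nppb*, -0.23 (-0.57 to 0.11, adjusted p = 0.68). In these 3 settings 0 of 5 had an unadjusted p under 0.05 in edgeR and 0 of 5 were called by DESeq2. Of all genes 5.79%, 2.72% and 8.0% had an unadjusted p under 0.05, and DESeq2 called 3, 2 and 163. In contralateral sham ganglia (0%) *Calca* was 0.19 higher in cKO (interval -0.01 to 0.38, adjusted p = 0.88), with 799 and 781 CPM in control and 894 and 907 CPM in cKO mice. The groups did not overlap for *Calca*, nor for *Tac1* (0.12, adjusted p = 0.935). The share of all genes without overlap was not counted. In edgeR 0 of 5 genes had an unadjusted p under 0.05, beside 5.23% of all genes. DESeq2 called 0 of 5, beside 31 of all genes.

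In ipsilateral sham ganglia (0.00451% of all genes called) both peptidergic markers were higher in cKO without passing. *Tac1* was at 161.5 and 187.7 CPM in control and 300.4 and 213.0 CPM in cKO mice, a log2 difference of 0.59 (SE 0.154, unadjusted p = 0.00531, adjusted p = 0.508). DESeq2 called it (0.59, adjusted p = 0.00572), as did edgeR with genes of any count kept (0.57, adjusted p = 0.00102). *Calca* was at 777 and 901 CPM in control and 1026 and 914 CPM in cKO mice (0.25, SE 0.084, unadjusted p = 0.0198, adjusted p = 0.563). These 2 of 5 genes had an unadjusted p under 0.05, beside 7.59% of all genes. The *Tac1* difference rests on cKO mouse 1: without its ipsilateral library it was 0.31 (adjusted p = 0.935). In that library the summed level of the 9 further peptidergic markers was 1622 CPM, against 1312 to 1451 in the other 7 sham libraries, and that of the 6 itch markers 1081 against 768.1 to 896.3; both sums include *Trpv1*. Between genotypes ipsilaterally 6 of the 9 peptidergic markers were higher in cKO without a call (median 0.20), and the 12 pan-neuronal genes had a median of -0.01. Their part in the *Tac1* and *Calca* differences was not tested.

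Across the 20 ganglion libraries the genes most like each of the 5 were sought among 14649 genes with a mean of at least 1 CPM, by Pearson's r of log2 CPM. Depth, table and, apart from the crushed cKO libraries of both sexes, sex by transcripts go with the setting, so r is a description. *Tac1* was most like *Cartpt* (0.93), *Trpv1* (0.92) and *Bex1* (0.87), and *Calca* most like *Hnrnpab* (0.95), *Cgref1* and *Nol7* (0.94 each). Among the genes most like *Sst* were *Klhl5* (0.95) and *Sh2d5* (0.94), and *Nppb* was most like *Alkal2* (0.93), *Map3k6* (0.92) and *Junb* (0.91). *Calcb* had the weakest likeness, to *Sub1* (0.83), *Coq2* (0.80) and *Sri* (0.79). Among themselves, *Tac1* and *Calca* had an r of 0.85, *Calca* and *Nppb* 0.69, *Calca* and *Calcb* 0.67, *Tac1* and *Calcb* 0.65, *Calcb* and *Sst* 0.63 and *Tac1* and *Nppb* 0.55. The other 4 pairs ranged from -0.16 for *Sst* and *Nppb* to 0.30 for *Calca* and *Sst*. With the neurons added (26 libraries), *Calca* was the gene most like *Tac1* (0.95), and *Sst* and *Nppb* had an r of -0.10.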

How the data were processed

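The authors deposited 2 tables of raw counts per gene and matching FPKM tables, one with the naive and crushed libraries and one with the sham and neuron libraries. Libraries were made with TruSeq Stranded mRNA, per the labels' protocols; Trim Galore, HISAT2, featureCounts and mm10 are named in the submitters' processing notes, without versions. From the values, the deposited FPKM divide counts by gene span and library total (100.0% of 23061 genes within 0.1%). GENCODE M21 gave names for 55141 of 55401 genes.

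Counts were tested with edgeR 4.0.16 in R 4.3.3 (quasi-likelihood test, filterByExpr with a minimum count of 10 and total of 15, TMM factors, group means without covariates, two-sided, Benjamini-Hochberg over all genes, called under 0.05). The 12 naive and crushed, 6 neuron, 8 sham, and 12 naive and neuron libraries were fitted separately. CPM use joint TMM factors over 26 libraries, and errors are SD over libraries. Each SE is |log2 fold change| over √F, from which approximate 95% intervals follow. DESeq2 1.42.0 and other settings were alternatives. The fits were also run on simulated counts with known changes, and the outcome is not given here.

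Genes named are the 5 neuropeptides, 6 receptors, and up to 3 called genes of smallest p per list and comparison, except 1 gene that is not reported here; in comparisons of genotypes the neuropeptide with the smallest p is given. Genes, lists and tests were chosen with earlier results of these data known. The labels number a mouse for every library. Both sides of a sham mouse come from 1 animal; their deviations correlated across genes at 0.229 in control and -0.159 in cKO mice.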

Additional observations from a re-analysis of the deposited data

How the results depend on the processing

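Of 208 recomputed counts of called neuropeptides, 197 stayed within 1.5 times the count given. After crush in control ganglia 1 of 5 (*Nppb*) was called without the libraries against their labelled sex and 1 to 2 without single replicates; in cKO 1 was called with sex by transcripts as a term and 1 to 2 without single replicates. Between genotypes in ipsilateral sham ganglia 1 (*Tac1*) was called in DESeq2 and 1 without a filter, and between sides 2 without a filter. Log2 differences near 0 turned sign in these cases: *Tac1* after crush in control without single replicates (-0.01654 to 0.12), *Calcb* between sham sides without single libraries (-0.06846 to 0.10), *Calcb* in control neurons without single replicates (-0.02911 to 0.11) and cKO neurons (-0.07591 to 0.02201 without single replicates, 0.0456 without a filter), and *Sst* in control neurons (-0.16 to 0.11 without single replicates, 0.04369 without a filter). The cause of these shifts was not tested. A library left alone in its sham group was taken to vary like the others.

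The replicate number as a block changed no call among the 5 genes; *Sst* and *Nppb* after crush remained called in both genotypes. The mouse as a block gave 4 calls over all genes between sham sides in place of 1. It gave 9 with the cKO mice crossed, a pairing tried after seeing the data. Between genotypes ipsilaterally, where each mouse has 1 genotype, the replicate number as a block gave 3 calls in place of 1. The numbers did not pair the other libraries (correlations of -0.418 to 0.412); in neurons each of 3 libraries correlated best with its own number (0.0642 to 0.221), and the block gave 5 calls in place of 0. Over all genes, crush in cKO had 1414 calls with sex as a term and 2400 without the libraries against their labelled sex, in place of 3962. Between genotypes DESeq2 called 153 genes ipsilaterally, 31 contralaterally and 163 in neurons; it called 200 between sham sides, 12 for side by genotype and 36 for culture by genotype. Without a filter edgeR called 626, 59, 27, 381 and 144 in the first 5 of these. Without the ipsilateral library of cKO mouse 1 it called 98 ipsilaterally, 85 between sides and 28 for side by genotype; without that of cKO mouse 2 it called 30, 9 and 0. Without crushed cKO replicate 1 it called 8 for crush by genotype and 15 between crushed genotypes. Without neuron control replicate 1 it called 15 between neuron genotypes. *Sst* had 62 to 214 and *Nppb* 190 to 484 counts per naive or crushed library, which limits the precision of both.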
